A study of Bos taurus with 4 samples.

Results

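The unfolded protein response (UPR) and protein folding in the endoplasmic reticulum (ER) were followed through CALR, CANX, PDIA3, PDIA4, PDIA6, XBP1, ATF4, ATF6, DDIT3 and EIF2AK3. All probes whose symbol in the platform annotation is 1 of these 10 genes were taken, which gave 11 of the 43794 EmbryoGENE probes on the array and covered 7 of the 10 genes (of 15229 gene symbols on the array). PDIA6 and DDIT3 each had 3 probes, and CALR, PDIA3, PDIA4, ATF4 and EIF2AK3 each had 1. No probe carried the symbol CANX, XBP1 or ATF6, so these 3 genes were not analysed here.

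Bovine compact morulae produced in vitro were either vitrified or left unfrozen, and RNA was taken from pools of the expanded blastocysts that developed from them. Vitrified morulae were passed through ethylene glycol, dimethyl sulfoxide and sucrose, plunged on a cryotop into liquid nitrogen, stored for at least 24 h, warmed and cultured further in the medium that the control morulae stayed in. Each of the 4 arrays of 1 slide carried 1 vitrified and 1 control pool, so that 4 pools per group were compared pairwise. Cy5 marked the vitrified pool on arrays 1 and 2, and the dyes were exchanged for arrays 3 and 4. Only embryos that reached the expanded blastocyst stage entered a pool, 7 per pool by the labels and from 5 to 7 by the methods, and the morulae were of day 6 by the labels and of day 7 by the methods. For the embryos of both groups alike, the labels give an age of 7 days post fertilization at collection. The labels mark cryopreservation as "Yes" in both channels, whereas the treatment field gives Control in 1 of them, and the groups were taken as the treatment field gives them. The RNA of both groups was amplified before labeling.

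Proteins that enter the ER are folded by chaperones and held there until they are correctly folded. The lectin chaperones CALR and CANX bind newly made glycoproteins, and the protein disulfide isomerases PDIA3, PDIA4 and PDIA6 form and rearrange disulfide bonds. When unfolded proteins accumulate, the membrane sensors ATF6, EIF2AK3 (PERK) and ERN1 (IRE1) start the UPR. EIF2AK3 slows translation and thereby favours synthesis of the transcription factor ATF4, which can induce DDIT3 (CHOP), a factor linked to cell death, whereas ERN1 splices the message of XBP1 and ATF6 is itself cut into a transcription factor. Splicing of XBP1, cleavage of ATF6 and phosphorylation of EIF2AK3 do not change what a probe for the whole transcript reads.

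A spot was counted as above background when its median signal exceeded the mean of 153 negative control spots of the same dye and array by more than 2 SD. In each reading, that is 1 dye of 1 array, 60.1% to 67.3% of probes met this limit. Tests covered the 28944 probes that met it in 4 or more of the 8 readings, and the 11 probes described here were among them. The limit was highest in Cy3 of array 3, where the vitrified pool was read (353 intensity units), and ranged from 86.1 to 207 in the other 7 readings. Array 3 also had the widest log2 ratios over all tested probes (SD 0.54, against 0.32 to 0.44 on the other arrays), and the ratios of any pair of arrays correlated across probes with r between -0.15 and 0.18, a description over probes that share each hybridization. The 13 trophectoderm and 7 inner cell mass markers tested had median log2 fold changes of -0.30 and 0.32, and the trophectoderm markers, like 6 of the 7 inner cell mass markers, were above background in all 8 readings. Of 10 cumulus and granulosa cell markers 6 were tested and 2 were above background in all 8 readings, and of 6 sperm markers 3 and 2 were.

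CALR, the calcium-binding lectin chaperone calreticulin, had the only log2 fold change among the 11 probes with an unadjusted p under 0.05, -0.59 (SE 0.21, n = 4 arrays, limma adjusted p = 0.61 over all probes), that is 0.666 times the control level. The adjusted p lay between 0.61 and 0.98 for the 11 probes, so that none passed 0.05, and neither did any of the 28944 (0%). Without adjustment, 1 of the 11 probes was lower in vitrified blastocysts at a p under 0.05, against 4.21% of all probes tested, and 0 were higher, against 3.41%. Their median log2 fold change was -0.11, and it was 0.0076 over all probes. Of the 11 values 8 were negative (72.7%), as were 48.5% over all probes, where 51.5% were positive, but 10 of the 11 probes had both signs on the 4 arrays. In pooled embryos, fewer cells of a type and less RNA per cell cannot be told apart.

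**Figure D1:**
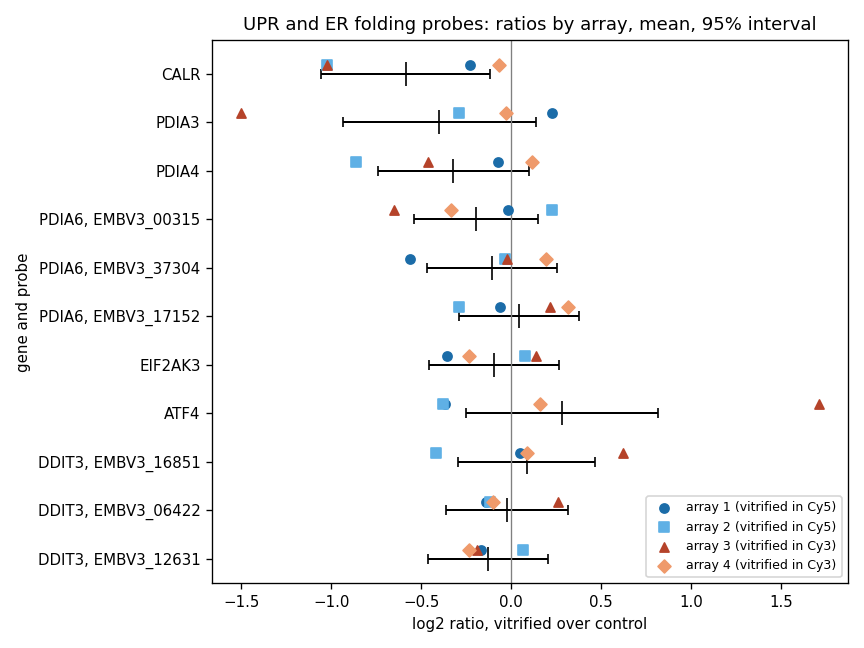
Log2 ratio of vitrified over control blastocysts (x axis) for each of the 11 probes of UPR and ER folding genes (y axis). Colored points are the 4 arrays, black ticks the mean and black bars the 95% interval of the limma fit. The points of CALR all lie under 0 (-1.03 to -0.07), and array 3 holds the outlying points of PDIA3 (-1.50) and ATF4 (1.71).

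The normalized log2 signal of CALR was 12.41, 12.11, 11.83 and 12.64 in the vitrified pools of arrays 1 to 4 and 12.63, 13.13, 12.86 and 12.70 in the control pools. The vitrified pools of arrays 2 and 3 were the lowest of the 8, whereas that of array 4 was at the level of the controls, so that the groups overlapped by a small margin. None of the 11 probes separated the groups completely, which 3.06% of all probes did. On arrays 1 to 4 the log2 ratio of CALR was -0.23, -1.02, -1.03 and -0.07, and CALR was the only one of the 11 with the same sign on all 4 arrays (7.13% of all probes were negative and 7.27% positive on all 4). The size came from array 2, where vitrified RNA was in Cy5, and array 3, where it was in Cy3, and the means of the 2 dye orientations were close (-0.63 and -0.55). The log2 fold change was -0.39 without array 2 and -0.35 without array 3, and neither had an unadjusted p under 0.05. Trophectoderm markers were low on the same arrays, with medians of -0.02, -0.61, -0.70 and -0.12 on arrays 1 to 4. The 7 hypoblast markers tested, 6 of them above background in all 8 readings, had their lowest medians on those arrays as well, with 0.02, -0.37, -0.52 and -0.12, although 4 of the 7 had a positive log2 fold change. At an unadjusted p under 0.05, 2 of the 7 were lower and 1 was higher. APOA1 had -1.01 (SE 0.25, its other probe -0.68) and HNF4A -0.79 (SE 0.23, its other probes -0.08 and -0.02). In the other direction, PDGFRA had 0.47 (SE 0.15, its other probes -0.09 and 0.06). The ratios of PDGFRA split along the dyes, positive with vitrified RNA in Cy5 and negative with it in Cy3 (-0.52 and -0.12). The PDGFRA dye term (0.79, unadjusted p under 0.05 by limma) was larger than its log2 fold change. The summed normalized signal of the hypoblast markers ran from 41377 to 75869 in vitrified and from 36432 to 77598 in control pools. This sum mostly follows FN1 (mean log2 signal 15.32, against 12.17 for HNF4A, the next brightest). The ratios of FN1 were 0.98 and 1.39 with vitrified RNA in Cy5 and -0.90 and -1.02 with it in Cy3. Of the 13 trophectoderm markers 11 had a negative log2 fold change, and their summed normalized signal ran from 140346 to 166937 in vitrified and from 153214 to 205078 in control pools. Of the 7 inner cell mass markers 5 had a positive log2 fold change. Their summed signal ran from 32411 to 41427 in vitrified and from 24755 to 31714 in control pools, and these ranges did not overlap. How often the sums of other gene sets do so was not computed. The sum mostly follows the brightest markers, DPPA3, KLF4 and POU5F1 (mean log2 signals of 13.41, 13.38 and 12.51). At an unadjusted p under 0.05, 1 of the 7 was lower, NANOG with -0.78 (SE 0.26), and 1 was higher, KLF4 with 0.60 (SE 0.21). The part of any of these marker lists in the CALR value was not tested.

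**Figure D2:**
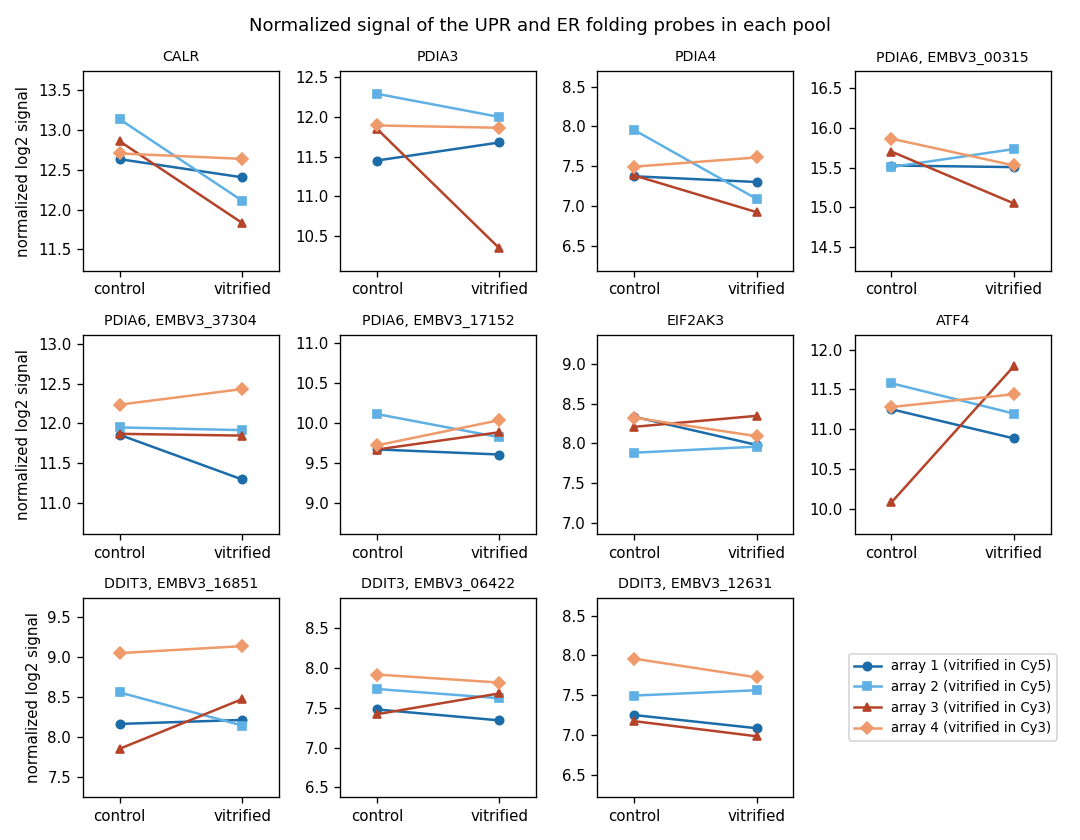
Normalized log2 signal (y axis, the same span of 2.5 log2 units in each panel) of each probe in the control and vitrified pool of each array, joined by a line per array. CALR lines all slope down, the PDIA3 line of array 3 drops to 10.35, and the ATF4 line of array 3 starts from 10.08.

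PDIA3 (ERp57), the disulfide isomerase that works with calreticulin and calnexin on glycoproteins, had a log2 fold change of -0.40 (SE 0.24, adjusted p = 0.721). Its normalized log2 signal was 11.68, 12.00, 10.35 and 11.86 in vitrified pools and 11.45, 12.29, 11.85 and 11.89 in control pools. A single vitrified pool, that of array 3, lay far under the other 7 readings, and the remaining readings of both groups overlapped. The log2 ratios were accordingly 0.23, -0.29, -1.50 and -0.03 on arrays 1 to 4. PDIA3 and CALR thus shared the low vitrified pool of array 3 but not that of array 2, where CALR was lower by 1.02 and PDIA3 by 0.29 on the log2 scale. Without array 3, PDIA3 had -0.030, so that nearly all of its value came from that array. Without array 4, it had -0.77 (adjusted p = 0.107, unadjusted p under 0.05), a fit in which array 3 alone stands for its dye orientation.

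PDIA4 (ERp72), a disulfide isomerase with additional thioredoxin-like domains, had a log2 fold change of -0.32 (SE 0.19, adjusted p = 0.720). Its normalized log2 signal was 7.30, 7.09, 6.92 and 7.61 in vitrified pools and 7.37, 7.96, 7.39 and 7.49 in control pools. The vitrified pools of arrays 2 and 3 were again the lowest of the 8, as for CALR. This was a dim probe, however, with spot signals between 0.933 and 1.76 times the background limit, and the vitrified reading of array 3 was under that limit (329 against 353 intensity units). It was the only one of the 11 probes not above background in all 8 readings. Without array 1, its log2 fold change was -0.52 (adjusted p = 0.555, unadjusted p under 0.05), whereas it was -0.12 without array 2 and -0.18 without array 3.

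PDIA6 (P5), a disulfide isomerase that also associates with the chaperone HSPA5 and acts on ER stress sensors, was read by 3 probes that did not share a direction. The brightest, EMBV3_00315, had a log2 fold change of -0.20 (SE 0.15), EMBV3_37304 had -0.11 (SE 0.16) and EMBV3_17152 had 0.04 (SE 0.15), and each had an adjusted p of 0.78 or more. On arrays 1 to 4 the log2 ratios of EMBV3_00315 were -0.02, 0.22, -0.65 and -0.34, whereas those of EMBV3_17152 were -0.06, -0.29, 0.22 and 0.32. The first was thus lower and the second higher in vitrified blastocysts on the arrays where vitrified RNA was in Cy3, a split along the dyes in opposite directions within 1 gene. EMBV3_37304 was low on array 1 (-0.56) and gave -0.03, -0.02 and 0.20 on the others. The spots of EMBV3_00315 gave 37750 to 62919 intensity units, near the top of the scanner's range, where the highest reading of any spot was 65535. Which part of the transcript each probe matches was not analysed here.

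EIF2AK3 had a log2 fold change of -0.09 (SE 0.16, adjusted p = 0.906), with log2 ratios of -0.35, 0.08, 0.14 and -0.23. Its normalized log2 signal was 7.98, 7.96, 8.35 and 8.09 in vitrified pools and 8.34, 7.88, 8.21 and 8.32 in control pools. The 2 groups were interleaved, and no array stood apart from the others. Its spots were above the background limit in all 8 readings, but by no more than 2.85 times. The sensor gene ERN1, the kinase and nuclease that splices XBP1, had 1 probe, which was above background in 0 of the 8 readings, and ATF6B, the relative of ATF6, was above background in 1, so that neither was tested.

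ATF4 had the highest log2 fold change of the 11, 0.28, but its error was nearly as large (SE 0.23, adjusted p = 0.793). The normalized log2 signal was 10.88, 11.20, 11.79 and 11.44 in vitrified pools and 11.25, 11.58, 10.08 and 11.28 in control pools. The control pool of array 3 was more than 1 log2 unit under the other 3 control pools, and the vitrified pool of the same array was the highest of the 8. The log2 ratios were -0.37 and -0.38 with vitrified RNA in Cy5 and 1.71 and 0.16 with vitrified RNA in Cy3. ATF4 was the only one of the 11 probes with a dye term at an unadjusted p under 0.05 (-0.65), which 8.3% of all probes had. Without array 3 its log2 fold change was negative (-0.11). Without array 4 it was 0.67 (adjusted p = 0.124, unadjusted p under 0.05), a fit in which array 3 alone stands for its dye orientation. Neither direction of ATF4 was thus shown by these arrays.

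**Figure D3:**
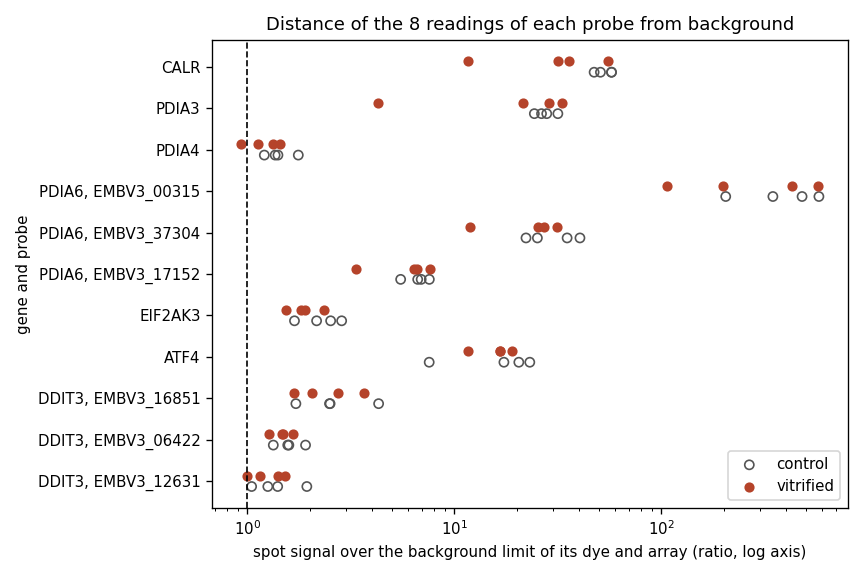
Spot signal divided by the background limit of its dye and array (x axis, log scale, dashed line at 1) for the 4 control and 4 vitrified readings of each probe (y axis). PDIA4, EIF2AK3 and the 3 DDIT3 probes lie between 0.933 and 4.30 times the limit, and the brightest PDIA6 probe lies at 107 times or more.

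DDIT3 was read by 3 dim probes, with spot signals between 1.00 and 4.30 times the background limit. EMBV3_16851 had a log2 fold change of 0.09 (SE 0.17), EMBV3_06422 had -0.02 (SE 0.15) and EMBV3_12631 had -0.13 (SE 0.15), with adjusted p between 0.85 and 0.98. EMBV3_16851 gave normalized log2 signals of 8.21, 8.14, 8.47 and 9.14 in vitrified pools and 8.16, 8.56, 7.85 and 9.05 in control pools. Both pools of array 4 were the highest of their group, and they differed by only 0.09. On array 3 the ratio of EMBV3_16851 was 0.62 and that of EMBV3_06422 was 0.26, both in the direction of ATF4 on that array, but EMBV3_12631 had -0.19 there. The vitrified reading of EMBV3_12631 on array 3 was at the background limit (353 intensity units, 1.00 times the limit).

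For 10 of the 11 probes the 95% interval lay within 1 log2 unit of 0 on either side, and for CALR it ran from -1.06 to -0.12. The intervals were -0.93 to 0.14 for PDIA3, -0.25 to 0.81 for ATF4 and -0.45 to 0.27 for EIF2AK3. With 4 arrays, values within these intervals could not be told apart. The SD of the ratio over the 4 arrays ran from 0.13 for the DDIT3 probe EMBV3_12631 to 0.99 for ATF4. Array 3 held the ratio farthest from 0 for 6 of the 11 probes, whereas it did so for 40.3% of all probes. Array 2 did so for 1 of the 11 and for 27.9% of all probes. For 7 of the 11 probes the ratios of the 2 dye orientations did not overlap, and the same was true of 39.3% of all probes. The array number is the position on the slide, and which in vitro fertilization cycle it stands for is not given.

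Among the other genes of the pathway, 116 were measured in 7 lists, each gene by its brightest probe. At an unadjusted p under 0.05, 13 of the 116 genes were lower and 3 were higher in vitrified blastocysts (11.2% and 2.59%), against 5.08% and 3.61% over all genes, and 0 passed the adjusted p by limma. Their median log2 fold change was -0.08 and 77 of the 116 were negative (66.4%), as were 49% of all genes. On arrays 1 to 4 the medians were -0.20, -0.08, -0.12 and 0.0086. The count of lower genes was 4 without array 3 (3.45%, against 2.26% of all genes) and 21 without array 4 (18.1%, against 9.77%). The count over all genes moved in the same direction in both fits.

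**Figure D4:**
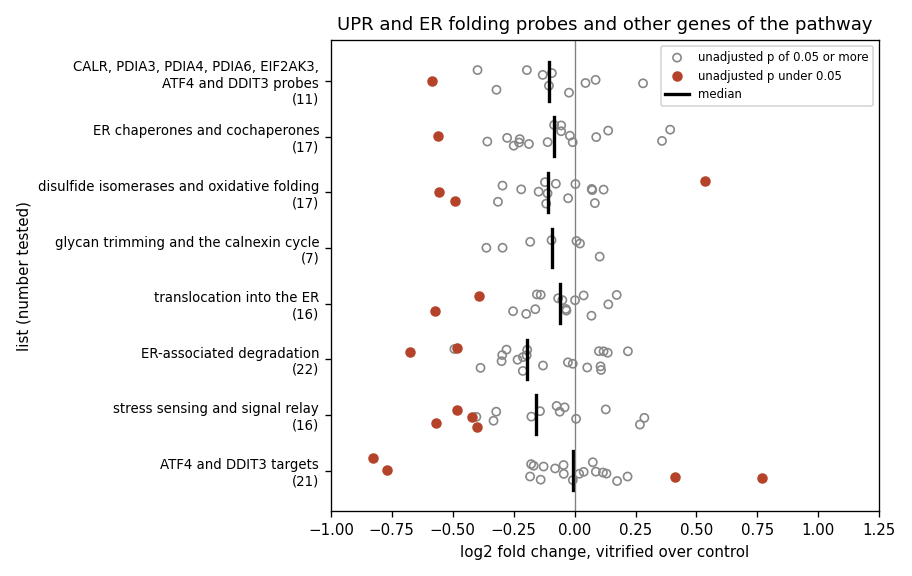
Log2 fold change of vitrified over control blastocysts (x axis) for the 11 probes and for the genes of 7 lists (y axis, number tested in parentheses). Filled points had an unadjusted p under 0.05, open points did not, and black bars are medians, which lie between -0.20 for ER-associated degradation and -0.0073 for the ATF4 and DDIT3 targets.

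The median log2 fold change of 17 ER chaperones and cochaperones was -0.08, and 1 of them was lower at an unadjusted p under 0.05, whereas 0 were higher. The lower gene was CRELD2, an ER protein that unfolded proteins induce, which had -0.56 (SE 0.24), from ratios of -0.08, -1.17, -1.09 and 0.10 on arrays 1 to 4. Like CALR, CRELD2 was low in vitrified pools on arrays 2 and 3 and near 0 on arrays 1 and 4, and it did not pass without either of arrays 2 and 3 (-0.29 and -0.26). HSPA5 (BiP), the main Hsp70 chaperone of the ER and the usual marker of the UPR, had -0.19 (SE 0.16, adjusted p = 0.800), with ratios of -0.63, -0.32, -0.15 and 0.36. HSP90B1, its Hsp90 counterpart, had -0.06 (SE 0.15; its other probe -0.11). CRELD2 also did not pass with normexp correction (-0.53) or with no background subtraction (-0.53). With 1 array left out, HSPA5 ran from -0.32 (without array 4) to -0.06 (without array 3) and HSP90B1 from -0.16 (without array 3) to 0.048 (without array 4).

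Of 17 other genes of disulfide formation, with a median of -0.11, 2 were lower and 1 was higher at the same limit. ERP44, which retains oxidases in the ER, had -0.49 (SE 0.16; its other probe -0.27), with ratios from -0.82 to -0.18, all negative. QSOX1, a sulfhydryl oxidase, had -0.56 (SE 0.24) and PRDX4, a peroxiredoxin of the ER that removes the peroxide made during disulfide formation, had 0.54 (SE 0.19). QSOX1 had ratios of -1.08 and -1.17 on arrays 2 and 3 and 0.21 on array 4, and CALR and CRELD2 were also lowest on arrays 2 and 3. Over all probes, array 2 held the ratio farthest from 0 for 27.9% and array 3 for 40.3%. Whether the likeness is particular to these genes was not tested. PRDX4 was highest on array 4 (1.36). At the unadjusted limit, ERP44 did not pass without array 1 (-0.45) or 3 (-0.33), QSOX1 without array 2 (-0.33) or 3 (-0.21), nor PRDX4 without array 2 (0.41) or 4 (0.30). QSOX1 also did not pass with normexp correction (-0.53), with no background subtraction (-0.52) or with dim probes kept (-0.56). In glycan trimming and the calnexin cycle none of 7 genes passed an unadjusted p under 0.05, and the median was -0.09. The smallest p belonged to LMAN2, a lectin of glycoprotein transport (-0.36, SE 0.18, adjusted p = 0.687; its 2 other probes -0.23 and -0.03), and to GANAB, a subunit of glucosidase II (-0.30, SE 0.16, adjusted p = 0.715; its other probe 0.13). LMAN2 came to pass the unadjusted limit without array 2 (-0.57), with no quantile step (-0.39), with the authors' ratios (-0.39) and with separate channels (-0.36), and GANAB without array 4 (-0.45) and with separate channels (-0.30). In the other direction, LMAN2 had -0.15 without array 1 and GANAB -0.14 without array 3.

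Of 16 genes of translocation into the ER, with a median of -0.06, 2 were lower and 0 higher. SEC11C, a catalytic subunit of the signal peptidase, had -0.57 (SE 0.19) with 0.03 on array 4, and SSR1, a subunit of the translocon-associated complex, had -0.39 (SE 0.16; its 2 other probes -0.30 and 0.11). SEC11C did not pass without array 3 (-0.32), nor did SSR1 without array 1 (-0.29) or 4 (-0.30) or with the robust trended fit (-0.39). ER-associated degradation, which sends misfolded proteins to the proteasome, had the lowest median of the 7 lists, -0.20 over 22 genes, of which 2 were lower and 0 higher. They were EDEM2 and EDEM1, both of which act in trimming mannose from misfolded glycoproteins. EDEM2 had -0.68 (SE 0.15, adjusted p = 0.406) and ratios of -0.50, -0.53, -0.93 and -0.75, all of 1 sign. EDEM1 had -0.48 (SE 0.16; its 2 other probes -0.34 and -0.10), and its ratio on array 4 was 0.02. EDEM1 did not pass at the unadjusted limit without array 2 (-0.42) or 3 (-0.34), whereas EDEM2 passed it with any 1 array left out.

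Among 16 genes of stress sensing and signal relay 4 were lower and 0 higher, with a median of -0.16. MBTPS2, the protease that makes the last cut in ATF6, had -0.57 (SE 0.17), MAP3K5, a kinase downstream of ERN1, had -0.48 (SE 0.15), BAX, a pore-forming protein of apoptosis, had -0.42 (SE 0.16) and CREB3, a membrane-bound transcription factor of the ER, had -0.40 (SE 0.16). All 4 were negative on each of the 4 arrays. CREB3 was above background in 3 of 4 vitrified readings, so the size of its value is less certain. Its ratios were nearest to 0 on arrays 1 and 4 (-0.22 and -0.20). CREB3 did not pass at the unadjusted limit without array 1 (-0.46), 2 (-0.34) or 3 (-0.27), BAX without array 2 (-0.32) or 3 (-0.30), MAP3K5 without array 1 (-0.44), nor MBTPS2 without array 3 (-0.37).

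The 21 genes tested in the list of ATF4 and DDIT3 targets had values in both directions, with 2 lower, 2 higher and a median of -0.0073. MTHFD2, a mitochondrial enzyme of folate metabolism, had the smallest p of the 116 genes (log2 fold change -0.77, SE 0.15, adjusted p = 0.348; its other probe -0.53). It was lower on all 4 arrays, with ratios of -1.20, -0.81, -0.61 and -0.46. PSAT1, an enzyme of serine synthesis, had -0.83 (SE 0.28). It was far lower on arrays 1 and 3 (-1.28 and -1.76) than on the others (-0.15 and -0.13). DDIT4, an inhibitor of the growth kinase mTORC1, had 0.77 (SE 0.25), with -0.11 on array 1 and 0.74 to 1.55 on the others. PPP1R15B, a subunit of the phosphatase that reverses the signal of EIF2AK3, had 0.41 (SE 0.18, adjusted p = 0.654). MTHFD2 passed the unadjusted limit with any 1 array left out. PSAT1 did not pass without array 1 (-0.55) or 3 (-0.42), DDIT4 without array 2 (0.36), nor PPP1R15B without array 2 (0.26) or 4 (0.25). PPP1R15B also did not pass with a stricter filter (0.41), median centring (0.41), no quantile step (0.36), the authors' ratios (0.36) or the robust trended fit (0.41). On array 3, where the ratio of ATF4 was 1.71, MTHFD2 and PSAT1 had -0.61 and -1.76, DDIT4 had 0.74 and PPP1R15B had -0.04. These 4 genes were chosen by their p over all arrays and do not stand for the list. The ratios of all 21 genes on array 3 ran from -1.76 for PSAT1 to 0.88 for ASNS. Their median was 0.19 on array 3 (-0.12, -0.09 and 0.13 on arrays 1, 2 and 4).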

How the data were processed

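The intensity values deposited by the authors are the scanner's median spot signal and median local background in Cy3 and Cy5, before any subtraction. The authors also deposited log2 ratios (Cy5 over Cy3) that their methods describe as background-subtracted and normalized with lowess and quantiles. These matched loess ratios before the quantile step (r at least 0.9989).

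In R 4.3.3 with data.table (version 1.17.8) and limma 3.58.1, background was subtracted with a floor of 0.5. Loess was applied to each array, quantile normalization across arrays followed, and ratios were turned to vitrified over control. Group and dye were fitted on 2 residual degrees of freedom, to which the prior added 6.76. Tests were two-sided, with Benjamini-Hochberg adjustment over 28944 probes. The platform annotation gives 1 symbol to 21790 of 43794 probes. Sequences and genome positions of probes were not used. The steps were tested on simulated data.

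Every probe of the 10 genes, HSPA5 and HSP90B1 are named, as are in each list the genes with an unadjusted p under 0.05, at most the 4 with the smallest p, and the 2 with the smallest p where none passed. Genes and lists were chosen with earlier results of these data known. The alternatives changed the background step (normexp with an offset of 50, or none), the filter (none, or all 8 readings), the normalization (median centring, no quantile step, or the authors' ratios), the model (no dye term, an intensity trend with a robust fit, or separate channels) and the arrays (each left out).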

Additional observations from a re-analysis of the deposited data

Results flagged for a closer look

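The DDIT3 probe EMBV3_06422 had 1 array far from the others. Its log2 ratio was 0.26 on array 3 and -0.14, -0.12 and -0.10 on arrays 1, 2 and 4, so that the gap made up 0.909 of the whole range, past the 95% critical value of Dixon's test for 4 values. Of the 31 probes of the named genes tested in this way, 1 passed, where chance gives about 1 in 20. This probe was dim, with its vitrified reading on array 3 at 1.27 times the background limit.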

How the results depend on the processing

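Over the 11 probes and 20 named genes, 377 of the values under the 14 alternatives kept their sign and their side of an unadjusted p of 0.05, 38 no longer passed, 9 came to pass and 8 changed sign. Each change of sign came from leaving out an array. With 1 array left out, the log2 fold change ran from -0.24 (without array 2) to 0.026 (array 1) for the PDIA6 probe EMBV3_37304, from -0.012 (array 1) to 0.10 (array 2) for the PDIA6 probe EMBV3_17152 and from -0.20 (array 2) to 0.014 (array 1) for EIF2AK3. It ran from -0.11 (array 3) to 0.67 (array 4) for ATF4, from -0.048 (array 3) to 0.22 (array 4) for the DDIT3 probe EMBV3_16851, which had -0.030 without array 1, from -0.11 (array 3) to 0.068 (array 4) for the DDIT3 probe EMBV3_06422 and from -0.16 (array 3) to 0.048 (array 4) for HSP90B1. Leaving out an array also moved the number of the 11 probes that were lower from 0 to 2 and of those higher from 0 to 1, and the number of lower pathway genes from 4 to 21 and of higher ones from 1 to 5. None of the 11 probes or 116 pathway genes passed an adjusted p under 0.05 under any of the alternatives, whereas over all probes 2 did with the robust trended fit, 22 with separate channels and 2, 4, 3 and 187 without arrays 1 to 4, against 0. PDIA4 and CREB3 have no value under the stricter filter. The higher pathway genes numbered 5 with no filter on dim probes and 5 with separate channels, which keep the array as a replicate block, against 3. Precision is limited by there being 4 arrays, and 5 of the 11 probes were under 5 times the background limit in every reading.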
